A study of Mus musculus with 12 samples.

Results

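Exosomes released by mouse granulosa cells were profiled by small RNA sequencing, and the let-7 -3p arms, usually called the passenger strands of the let-7 hairpins, are described here. All entries named mmu-let-7 and ending in -3p were taken, 8 of the 637 miRNA entries, and 7 of the 8 had the 10 counts over 12 libraries needed for a test. The cells came from ovaries of female Kunming mice, an outbred stock, and a number of animals per library is not given in the sources used here. All cells were first kept for 24 h in medium free of exosomes and then cultured for 48 h, with 3 libraries in each of 4 groups. The CON group stayed untreated. The FAC group was given 100 μM ferric citrate, an iron salt. The DFO group was given 100 μM ferric citrate together with 100 μM deferoxamine mesylate, which chelates iron, and the VE group 100 μM ferric citrate together with 200 μM VITE, a lipid-soluble antioxidant. FAC, DFO and VE therefore shared the iron salt, and nothing in the labels says that the 3 libraries of a group came from separate animals or cultures, so p-values measure the spread between libraries, which may be technical.

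let-7 miRNAs are processed from hairpins by Drosha and Dicer. Dicer leaves a duplex of a -5p and a -3p strand, and an Argonaute protein usually keeps the -5p strand, the guide, whose seed is the same across most of the family. The -3p strand is usually discarded and is then rare, but either strand of a duplex can be loaded, and the -3p seeds select other targets than the -5p seed. In ovarian follicles granulosa cells surround the oocyte and exchange signals with it, some of them carried by vesicles.

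The -3p sequences are shown because the 8 entries differ in seed, and the entries that moved together did not share one. All 9 names in the 8 entries had a mature sequence in RefSeq (GRCm38.p6), given 5′ to 3′ with the seed, bases 2 to 8, in capitals.
mmu-let-7a-1-3p: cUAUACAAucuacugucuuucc
mmu-let-7c-2-3p: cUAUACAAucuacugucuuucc
mmu-let-7b-3p: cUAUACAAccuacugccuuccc
mmu-let-7f-1-3p: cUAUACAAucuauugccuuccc
mmu-let-7c-1-3p: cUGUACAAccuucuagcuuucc
mmu-let-7e-3p: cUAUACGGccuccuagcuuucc
mmu-let-7d-3p: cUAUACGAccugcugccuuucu
mmu-let-7a-2-3p: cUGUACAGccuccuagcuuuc
mmu-let-7i-3p: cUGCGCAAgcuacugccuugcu

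let-7a-1-3p and let-7c-2-3p are the same sequence and were counted as 1 joined entry. The seed UAUACAA was shared by 3 entries, the joined one, let-7b-3p and let-7f-1-3p, and each of the other 5 entries had a seed of its own. Over the other 35 pairs of names the sequences differed at 2 to 11 positions, with a median of 6. let-7c-1-3p and let-7e-3p differed at 4 positions, 3 of them in the seed. The -5p partners are closer to each other, with 1 to 6 differences over 21 pairs and a median of 3, so that reads of the -5p arms can be split between family members more easily than reads of the -3p arms.

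The hairpins of the 3 entries on which the results turn are given with both arms in capitals, the -5p arm first. The hairpin of let-7c-1 lies at chr16:77599657-77599750 on the plus strand, that of let-7e at chr17:17830352-17830444 on the plus strand and that of let-7d at chr13:48536012-48536114 on the minus strand, all in GRCm38.p6. The deposited values carry no coordinates.
Mirlet7c-1: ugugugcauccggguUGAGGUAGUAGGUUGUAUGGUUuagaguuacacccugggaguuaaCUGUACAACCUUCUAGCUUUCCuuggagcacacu
Mirlet7e: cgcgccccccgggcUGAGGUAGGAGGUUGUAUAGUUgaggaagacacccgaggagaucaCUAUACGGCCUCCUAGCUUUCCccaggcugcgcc
Mirlet7d: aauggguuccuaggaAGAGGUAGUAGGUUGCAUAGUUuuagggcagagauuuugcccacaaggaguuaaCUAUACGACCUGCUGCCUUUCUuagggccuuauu

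The 12 libraries held 452021 to 7565362 miRNA counts, up to 30.4% of the library total, fewest in CON and most in FAC. Levels are given as CPM, counts relative to the miRNA counts of the library after TMM scaling, and where it matters as RPM, reads relative to the library total as deposited. A count of 3, used as the floor of detection, was 0.351 to 7.90 CPM, and floors and intervals cover counting error only. Among counts of 10 to 500, each library had a highest peak of density, here called the lowest mode, between 20.3 and 198 counts. Peaks under 10 counts were not looked for, so the window itself keeps this value at 10 or more. A count below the lowest mode is read here as thin evidence. Of 4 markers of gonad and granulosa cells, miR-224-5p was above the floor in 12 libraries, miR-202-3p in 3 and miR-202-5p in 1, and miR-383-5p was not listed. miR-122-5p, the defining miRNA of liver, ran from 41724 to 183381 CPM over the libraries and erythroid miR-451a from 8.61 to 3798 CPM. The sum of the 4 listed blood markers was nearly all miR-451a. It was 661.7 to 3798 CPM in VE, above the 337.3 to 643 CPM of FAC and the 8.61 to 647 CPM of DFO without overlap, and 50.3 to 804.3 CPM in CON. The blood markers miR-144-3p and miR-142a-3p were above the floor in 0 libraries, and miR-223-3p in 1, with at most 2.27 CPM. The muscle markers miR-1a-3p and miR-206-3p summed to 292.2 to 592.2 CPM in CON, 359.5 to 869.2 CPM in DFO, 147.6 to 202.3 CPM in FAC and 130.5 to 164.4 CPM in VE, without overlap of FAC or VE with CON or DFO, and neuronal miR-9-5p was at 0 in CON and FAC. The share of all entries that separate groups in this way is not given here, and the part of these markers in the results was not tested.

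let-7d-3p was by far the most abundant of the -3p arms, and for this hairpin the data went against the name passenger. It made up 88.2% to 99.7% of all let-7 -3p counts of a library. Its own -5p arm, let-7d-5p, was the rarer strand in all 12 libraries. The -3p share of the let-7d arm counts was 98.8%, 99.5% and 99.8% in CON replicates 1 to 3, 90.7%, 90.8% and 99.5% in FAC, 95.3%, 96.5% and 98.1% in DFO and 99.1%, 96.7% and 97.6% in VE. FAC replicates 1 and 2 had the lowest shares, and FAC replicate 3 lay within the CON range. A change was called here by the study's threshold, a fold of at least 1.5 with an unadjusted p under 0.05, and most calls did not hold after adjustment over all entries, as the adjusted p beside each shows. No comparison of this arm ratio passed the threshold, but FAC against CON passed when counts were divided by the lowest mode (-3.40) and without FAC replicate 3 (-4.29).

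The level of let-7d-3p was 5551, 10681 and 13117 CPM in CON, 2650, 2677 and 8315 CPM in FAC, 11356, 11060 and 8742 CPM in DFO and 9034, 8035 and 7695 CPM in VE. FAC replicates 1 and 2 were below all other libraries, and the third FAC library fell among the CON values. On the CPM scale let-7d-3p fell in FAC against CON by 1.11 on the log2 scale (SE 0.51, adjusted p = 0.466 in edgeR's quasi-likelihood test). It also fell in FAC against DFO by 1.19 on the log2 scale (SE 0.51, adjusted p = 0.263). The first call was lost without CON replicate 2 (-1.02), CON replicate 3 (-0.80), FAC replicate 1 (-0.90) or FAC replicate 2 (-0.87), and the second without FAC replicate 1 (-1.08), FAC replicate 2 (-1.07) or DFO replicate 1 (-1.11). On the scales that refer to the library total the second call was lost too, with -0.34 with library totals and -0.11 in limma on log2(RPM + 1) (adjusted p = 0.959), where a pseudocount of 0.1 gave -0.11 as well. The first direction flips with the scaling: relative to the library total let-7d-3p was at 280, 179 and 338 RPM in CON and at 911, 831 and 1670 RPM in FAC, and limma on log2(RPM + 1) gave a log2 fold change of 2.07 (adjusted p over alternatives from 0.0153 to 0.858). With counts scaled to the library totals the median of all tested entries moved to 4.35 in FAC against CON, from 1.38 with TMM, and the 2.10 of let-7d-3p on that scale was below this median.

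**Figure D1:**
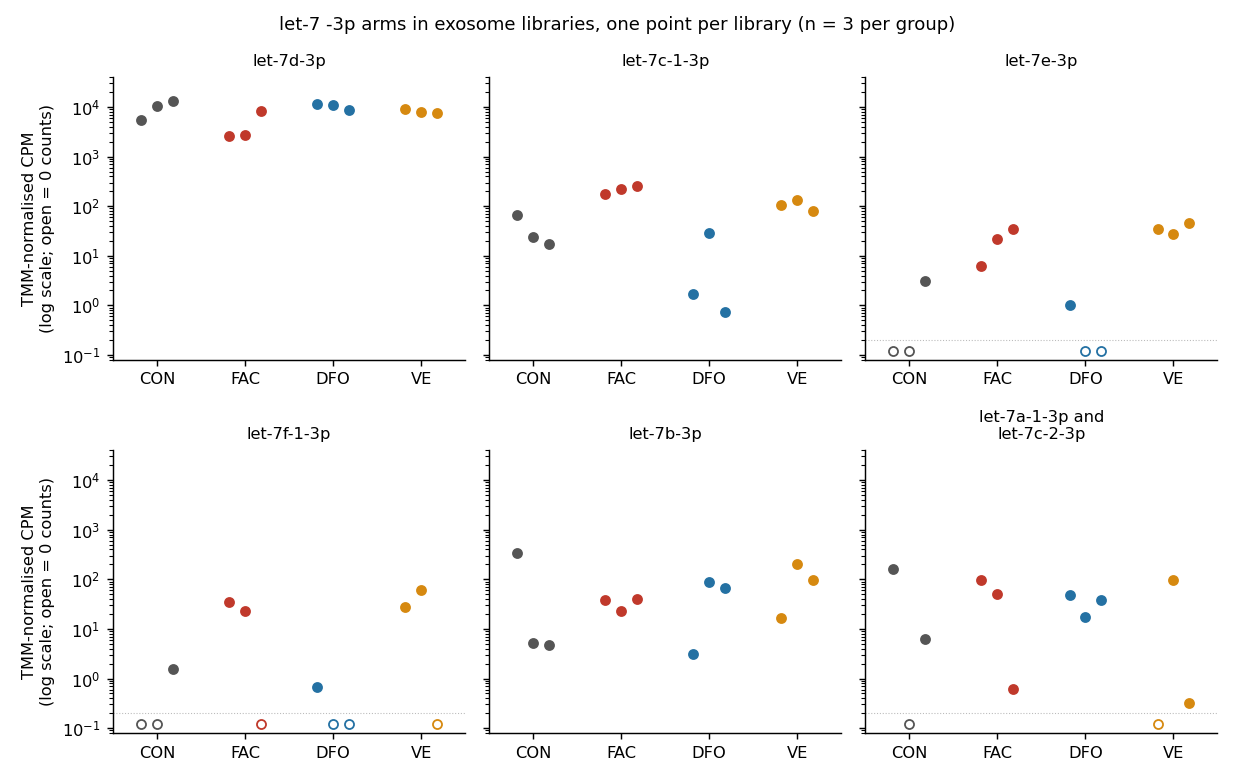
TMM-normalised CPM (vertical log axis) of 6 let-7 -3p entries in the 4 groups, one point per library, with open points below the dotted line for libraries with 0 counts. let-7d-3p sits between 2650 and 13117 CPM in all 12 libraries, let-7c-1-3p is at 175 to 258 CPM in FAC and at 0.751 to 28.5 CPM in DFO, and let-7e-3p and let-7f-1-3p reach at most 3.14 CPM in CON and DFO.

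let-7c-1-3p was the -3p arm with the clearest difference between groups. Its counts were 80, 9 and 11 in CON, 1496, 1647 and 1270 in FAC, 5, 159 and 1 in DFO and 236, 359 and 258 in VE. In CPM these were 65.5, 23.7 and 17.3 in CON, 175, 220 and 258 in FAC, 1.72, 28.5 and 0.751 in DFO and 107, 131 and 81.1 in VE. FAC was highest and VE second, neither overlapped CON or DFO or each other, and CON and DFO overlapped. The share of all tested entries that separate so is not given here. let-7c-1-3p is one of the 14 miRNAs that the study selected on these libraries for a difference of FAC from each other group, so its direction there is not independent evidence.

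The mean level of let-7c-1-3p was 217.7 ± 41.4 CPM in FAC (SD, n = 3), 106.2 ± 24.9 CPM in VE, 35.5 ± 26.2 CPM in CON and 10.3 ± 15.8 CPM in DFO. Between neighbours in this order, FAC and VE differed by 1.04 on the log2 scale (SE 1.38, adjusted p = 0.749), VE and CON by 1.57 (SE 1.41, adjusted p = 0.644) and DFO and CON by -1.77 (SE 1.42, adjusted p = 0.697 in edgeR's quasi-likelihood test), none past the threshold. It rose in FAC against DFO, with a log2 fold change of 4.37 (SE 1.58, adjusted p = 0.144), and in VE against DFO, with 3.34 (adjusted p = 0.391 in edgeR). In FAC against CON the log2 fold change of 2.61 did not pass with TMM scaling (SE 1.46, adjusted p = 0.607 in edgeR), but it passed in 6 of 11 other settings, with values over the 11 from 2.39 to 5.94 and an adjusted p in limma on log2(RPM + 1) of 0.000558 (0.000558 to 0.834 over all alternatives). On the RPM scale the groups were further apart, with 51.8 to 68.3 RPM in FAC, 9.75 to 14.8 RPM in VE, 0.398 to 3.30 RPM in CON and 0.0403 to 6.47 RPM in DFO. With library totals its log2 fold change was 5.44 in FAC against CON, where the median of all tested entries was 4.35, and 4.74 in FAC against DFO, where that median was 1.88. FAC against VE passed in 2 of 11 other settings, with 2.27 in limma on log2(RPM + 1) and 1.54 in lowest modes, and VE against DFO lost its call in 3 of 11. The call in VE against DFO was also lost without FAC replicate 1 (3.11), FAC replicate 2 (3.13), DFO replicate 1 (2.63), DFO replicate 3 (2.80) or VE replicate 2 (3.16), and that in FAC against CON was made without CON replicate 1 (3.41).

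Over all -3p entries, the level passed the unadjusted threshold for few members. FAC against CON gave 1 of 7, let-7d-3p, where 9.51% of the 547 tested entries passed. FAC against DFO gave 2 of 7, let-7c-1-3p higher and let-7d-3p lower, where 12.2% of all entries passed. VE against DFO gave 1 of 7, let-7c-1-3p, beside 11.9% of all entries. FAC against VE, DFO against CON and VE against CON gave 0 of 7 in edgeR, beside 9.32%, 7.68% and 10.4% of all entries. In DESeq2 they gave 0, 0 and 1, where the share of all entries is not given here. The smallest adjusted p of a member in any of the 6 comparisons was the 0.144 of let-7c-1-3p. Comparisons that name the same group share its libraries.

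Some of the -5p arms of the family fell in CPM in comparisons in which let-7c-1-3p was higher, past the threshold or not. Of 9 let-7 and miR-98 -5p arms, 4 fell in FAC against DFO and 0 rose, where 7.5% of all tested entries fell. Those were let-7a-5p, let-7b-5p, let-7c-5p and let-7e-5p, while let-7g-5p was at -0.05 and let-7i-5p at 0.14 on the log2 scale. In VE against DFO 4 of 9 fell as well, beside 6.58% of all entries, and in FAC against CON 3 of 9, beside 7.13%, with let-7d-5p at 1.96 and not past the threshold. In VE against CON, where the level of let-7c-1-3p did not pass, 4 of 9 fell, beside 39 of 547 tested entries. In DFO against CON 2 of 9 rose, beside 15 of 547, and in FAC against VE 0 of 9 passed in edgeR. On the RPM scale in limma on log2(RPM + 1) the falls were fewer, lost or flipped. In FAC against DFO 0 of 9 passed there, where 20.5% of all entries rose and 2.01% fell, and in VE against DFO 1 fell, beside 2.93%. In FAC against CON 7 rose, where 35.6% of all entries rose and 0 fell and the median of all entries was 0.96. The counts of let-7c-5p, the partner of let-7c-1-3p, came to 74083, 90070 and 121407 CPM in FAC against 241146, 284025 and 157888 CPM in DFO. Its log2 fold change in FAC against DFO was -1.26 (SE 0.34, adjusted p = 0.0271 in edgeR; 0.05 in limma on log2(RPM + 1)), and in VE against DFO it was -1.22 (SE 0.34, adjusted p = 0.032 in edgeR; -1.25 in limma on log2(RPM + 1)). let-7c-5p is also made by the let-7c-2 hairpin, so its counts are the sum of 2 genes.

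The -3p arm as a share of the counts of both arms compares the strands within a library and does not depend on the scaling between libraries. For let-7c-1 this share was 0.0440%, 0.0108% and 0.00754% in CON, 0.236%, 0.244% and 0.212% in FAC, 0.000714%, 0.0100% and 0.000475% in DFO and 0.155%, 0.119% and 0.0714% in VE. The 95% Wilson intervals of the 3 FAC libraries ran from 0.201% to 0.256% over all 3, and those of the VE libraries from 0.0632% to 0.176%. All 6 FAC and VE libraries lay above all 6 CON and DFO libraries. The share of all tested hairpins that separate in this way is not given here. The summed muscle markers separated the same groups in the other direction. Even in FAC the -3p arm stayed under 1 in 100 of the arm counts.

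The ratio of -3p to -5p was fitted for 128 hairpins at once with edgeR's quasi-likelihood test, in which the abundant -5p arm sets most of a hairpin's mean level. The study selected let-7c-1-3p on these same -3p counts, so a rise of its ratio in FAC is not independent evidence either. The let-7c-1 ratio rose in FAC against DFO with a log2 fold change of 7.18 (SE 1.65, adjusted p = 0.0018). It rose in VE against DFO with 6.11 (SE 1.63, adjusted p = 0.0117). It also rose in FAC against CON, with 3.92 (SE 1.49, adjusted p = 0.442 in edgeR), and fell in DFO against CON by 3.26 on the log2 scale (SE 1.62, adjusted p = 1 in edgeR). Neither FAC against VE, with 1.07 (SE 1.40, adjusted p = 0.993 in edgeR), nor VE against CON, with 2.85 (SE 1.47, adjusted p = 0.75 in edgeR), passed the threshold. In the alternatives tried the adjusted p lay between 0.000128 and 0.0733 for FAC against DFO and between 0.0016 and 0.167 for VE against DFO, and the unadjusted call held in all 18 for both. The size was less stable, with 4.75 to 7.18 and 3.54 to 6.11 over the 6 other settings. The DFO libraries held 5, 159 and 1 counts of let-7c-1-3p. The call in FAC against CON was lost without CON replicate 3 (3.38). The call in DFO against CON was lost without CON replicate 1 (-2.50), CON replicate 2 (-3.55), DFO replicate 1 (-2.44), DFO replicate 3 (-2.41) or VE replicate 3 (-3.26), and VE against CON passed in 3 of 6 other settings, 2 limma fits and that with let-7a-5p alone, and in 4 of the 12 fits without 1 library, among them that without CON replicate 1. DFO against CON lost its call in 2 of 6 other settings. The miRNA counts of VE, 2227419 to 3530978, lay within the 1373519 to 4877426 of DFO, while those of FAC were above all others.

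**Figure D2:**
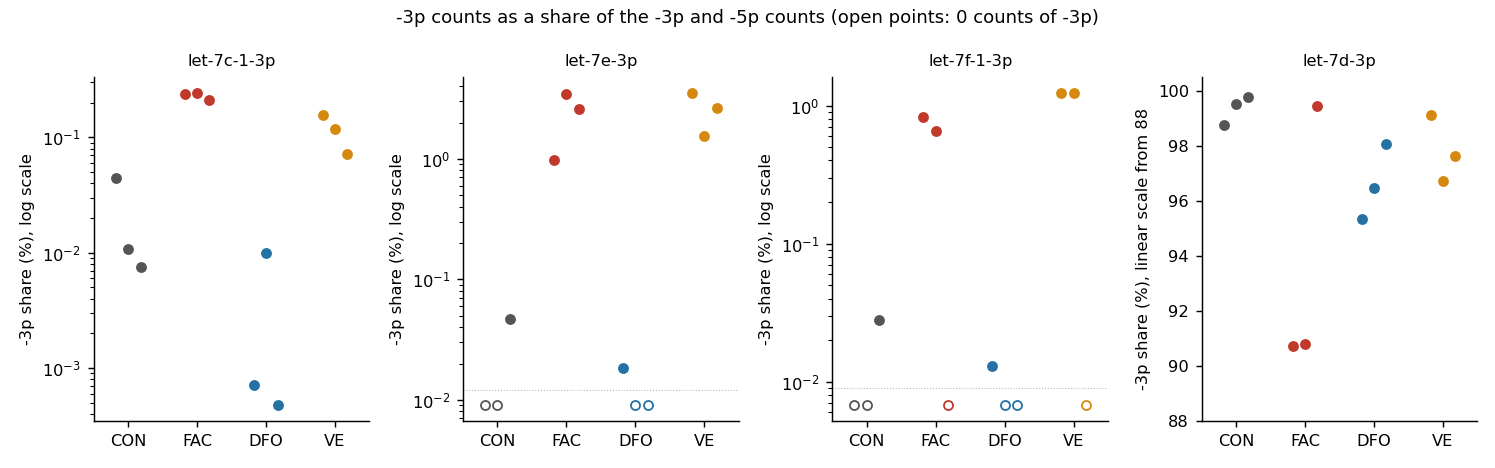
Share of -3p in the counts of both arms (vertical axis, percent) for the let-7c-1, let-7e and let-7f-1 hairpins on log axes and for let-7d on a linear axis that starts at 88, one point per library and open points for 0 counts. let-7c-1 and let-7e are higher in all 6 FAC and VE libraries than in all 6 CON and DFO libraries, let-7f-1 is at 0 in 1 FAC and 1 VE library, and let-7d is above 90% in every library. The share of all hairpins that separate in this way is not given.

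let-7e-3p was also higher in FAC and VE than in CON and DFO, at lower counts, but FAC and VE overlapped. It was counted 0, 0 and 2 times in CON, 54, 163 and 168 times in FAC, 3, 0 and 0 times in DFO and 77, 77 and 146 times in VE. Its share of the let-7e arm counts was 0.977%, 3.46% and 2.60% in FAC and 3.53%, 1.54% and 2.63% in VE. In CON it was 0.0467% in replicate 3 and 0% in the other two, where a count of 0 allows up to 0.191% and 0.183%. In DFO it was 0.0184% in replicate 1 and 0% in replicates 2 and 3, which allows up to 0.0142% and 0.135%. These limits take each read as independent and do not allow for the lowest mode. The 6 FAC and VE libraries did not overlap with the 6 CON and DFO libraries, here too without the share of all hairpins that separate so.

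The let-7e ratio of -3p to -5p rose in FAC against DFO (adjusted p = 0.0294) and in VE against DFO (adjusted p = 0.0248). It passed the unadjusted threshold in FAC against CON (adjusted p = 0.442) and in VE against CON (adjusted p = 0.288), all in edgeR. let-7e-3p had 2 counts in CON and 3 in DFO, so it reached the 10 counts needed for a test only through FAC and VE. Its p-values carry that limit. Fitted folds also depend on the prior count, and the pooled ratio is given with its counting interval, which leaves out the spread between libraries. The interval takes each read as independent and does not allow for the clustering of counts around the lowest mode. In lowest modes the FAC counts were only 0.921, 8.05 and 0.853, so the interval can be too narrow. The pooled ratio was 311.8-fold that of DFO in FAC, with a 95% exact interval of 105.9 to 1519, and 319.4-fold in VE, with 108.2 to 1557. Against CON it was 88.3-fold in FAC, with 24.3 to 731.8, and 90.4-fold in VE, with 24.8 to 750.2. FAC and VE differed by -0.23 on the log2 scale (SE 2.07, adjusted p = 1 in edgeR), a direction that 3 alternatives reversed. The level of let-7e-3p alone passed in none of the comparisons in edgeR, with an adjusted p of 0.458 in FAC against DFO and 0.391 in VE against DFO, while let-7e-5p fell in FAC against DFO from 5621, 3792 and 1665 CPM in DFO to 641, 608 and 1280 CPM in FAC (adjusted p = 0.0603 in edgeR).

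How far these 2 arms could have been seen depends on the -5p counts behind them. At the median FAC share of 0.236%, the let-7c-5p counts of the DFO libraries would come with 1655, 3746 and 497.5 counts of let-7c-1-3p, or 11.8, 41.1 and 5.24 lowest modes, where 5, 159 and 1 counts were found. In CON the same share would give 429.3, 196.9 and 345 counts, where 80, 9 and 11 were found. In lowest modes 6.26, 1.68 and 1.74 would be seen in CON, where 1.17, 0.0769 and 0.0556 were found. The CON depth is thus close to the limit on the scale of lowest modes, but not by the floor of 3 counts. For let-7e-3p the median FAC share of 2.60% would give 3.11, 6.19 and 0.623 lowest modes in DFO and only 0.61, 0.373 and 0.577 in CON. As counts the CON values would be 41.9, 43.7 and 114.2, above the floor of 3, where 0, 0 and 2 were found. In lowest modes the let-7e-3p counts were 0.921, 8.05 and 0.853 in FAC and 0.784, 0.88 and 1.31 in VE, and a difference of let-7e-3p from CON was not detectable at this depth when counts were read in lowest modes (log2 fold change of the ratio 4.65 for FAC and 4.50 for VE, neither past the threshold in edgeR). The part that this clustering of counts has in the results was not tested further.

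**Figure D3:**
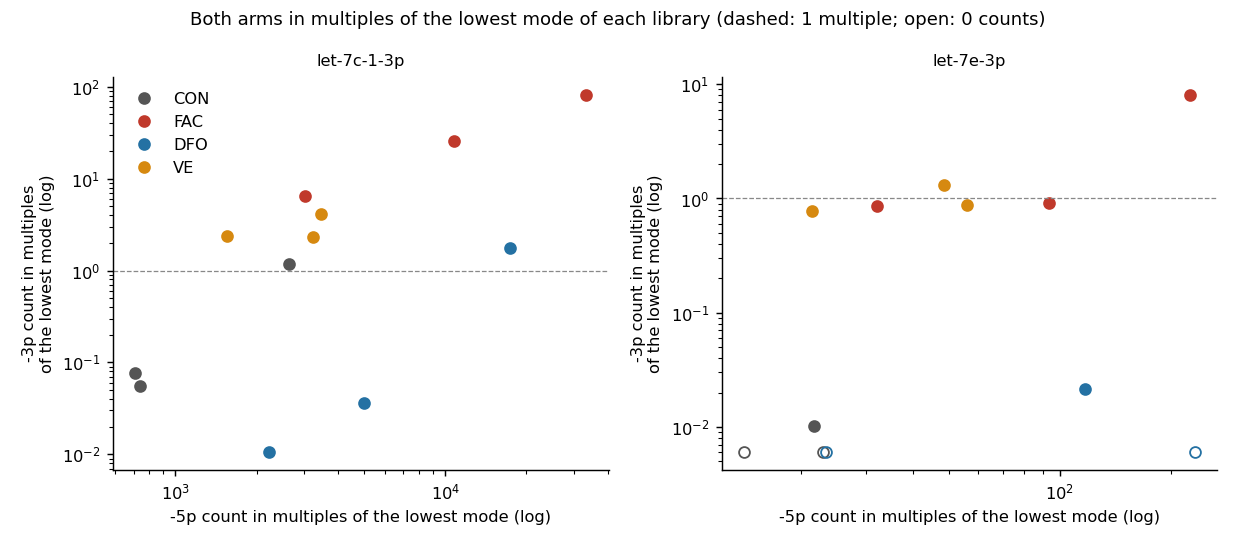
Counts of the -5p arm (horizontal log axis) and of the -3p arm (vertical log axis) of let-7c-1 and let-7e, both divided by the lowest mode of the library, one point per library and open points for 0 counts of -3p. let-7c-1-3p is above 1 lowest mode in all FAC and VE libraries and reaches 81.3, and let-7e-3p is close to 1 in 5 of these 6 libraries and at 8.05 in FAC replicate 2.

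let-7f-1-3p was present in some libraries and missing in others of the same group. It was counted 0, 0 and 1 times in CON, 295, 171 and 0 times in FAC, 2, 0 and 0 times in DFO and 61, 169 and 0 times in VE. The third FAC and the third VE library thus held none, and groups overlapped in every comparison. The ratio to let-7f-5p, which the let-7f-2 hairpin also makes, passed the threshold in FAC against DFO (adjusted p = 0.293 in edgeR) and in VE against DFO (adjusted p = 0.323 in edgeR). The first call was lost without FAC replicate 1 (log2 fold change 4.62), FAC replicate 2 (4.83) or DFO replicate 2 (5.13), and the second without FAC replicate 2 (7.18), VE replicate 1 (4.82) or VE replicate 2 (4.82).

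The joined entry of let-7a-1-3p and let-7c-2-3p varied widely within CON, FAC and VE. It was counted 193, 0 and 4 times in CON, 809, 382 and 3 times in FAC, 142, 98 and 52 times in DFO and 0, 261 and 1 times in VE. Beside the summed let-7a-5p and let-7c-5p, its ratio passed only in FAC against VE (adjusted p = 0.584 in edgeR), although groups overlapped. None of 6 other settings kept the call, and it was lost in 6 of 12 fits without 1 library, with 2.37 without FAC replicate 1, 2.92 without FAC replicate 2, 2.10 without VE replicate 1 and 1.95 without VE replicate 3. let-7b-3p, which has the same seed, had 414, 2 and 3 counts in CON, 325, 168 and 193 in FAC, 9, 485 and 89 in DFO and 36, 566 and 302 in VE, and it passed in no comparison of level or ratio. Its highest share of the let-7b arm counts was 0.73% in VE replicate 2, next to 0.724% in CON replicate 1. let-7b and let-7c-2 are neighbouring genes in RefSeq.

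The last 2 entries were close to absent. let-7i-3p was counted 45 times in FAC replicate 1 and once each in CON replicates 2 and 3, and was at 0 in the other 9 libraries. let-7a-2-3p had 8 counts in all, at most 4 in 1 library, and was not tested. let-7f-2-3p and let-7g-3p were not analysed here.

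Summed over the 7 members without let-7d-3p, the -3p share of let-7 arm counts was 0.202% to 0.365% in FAC and 0.142% to 0.337% in VE. It was 0.0151% to 0.047% in DFO and 0.0103% to 0.267% in CON, where CON replicate 1 was at 0.267% and the other two at 0.0103%. FAC and VE did not overlap with DFO, and CON replicate 1 lay inside the range of FAC and VE. How often other hairpins separate so is not given here.

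Counted over the members, the arm ratio passed the threshold for 3 of 7 in FAC against DFO, let-7c-1, let-7e and let-7f-1, all higher, where 10.2% of the 128 hairpins passed. The same 3 passed in VE against DFO, beside 7.81% of hairpins. At an adjusted p under 0.05 in edgeR let-7c-1 and let-7e passed in both comparisons, beside 3.12% of hairpins in each. FAC against CON gave 2 of 7, beside 3.91% of hairpins, VE against CON gave let-7e alone, beside 3.91%, DFO against CON let-7c-1 alone and lower, beside 3.91%, and FAC against VE the joined entry alone, beside 7.03%. let-7e-3p, let-7f-1-3p and let-7i-3p had fewer than 10 counts in CON and DFO together and so were tested only through the counts of FAC and VE. FAC against DFO and VE against DFO share the DFO libraries, and the joined entry and let-7c-1 share let-7c-5p. let-7c-1-3p was selected by the study on these libraries for a difference of FAC from each other group.

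**Figure D4:**
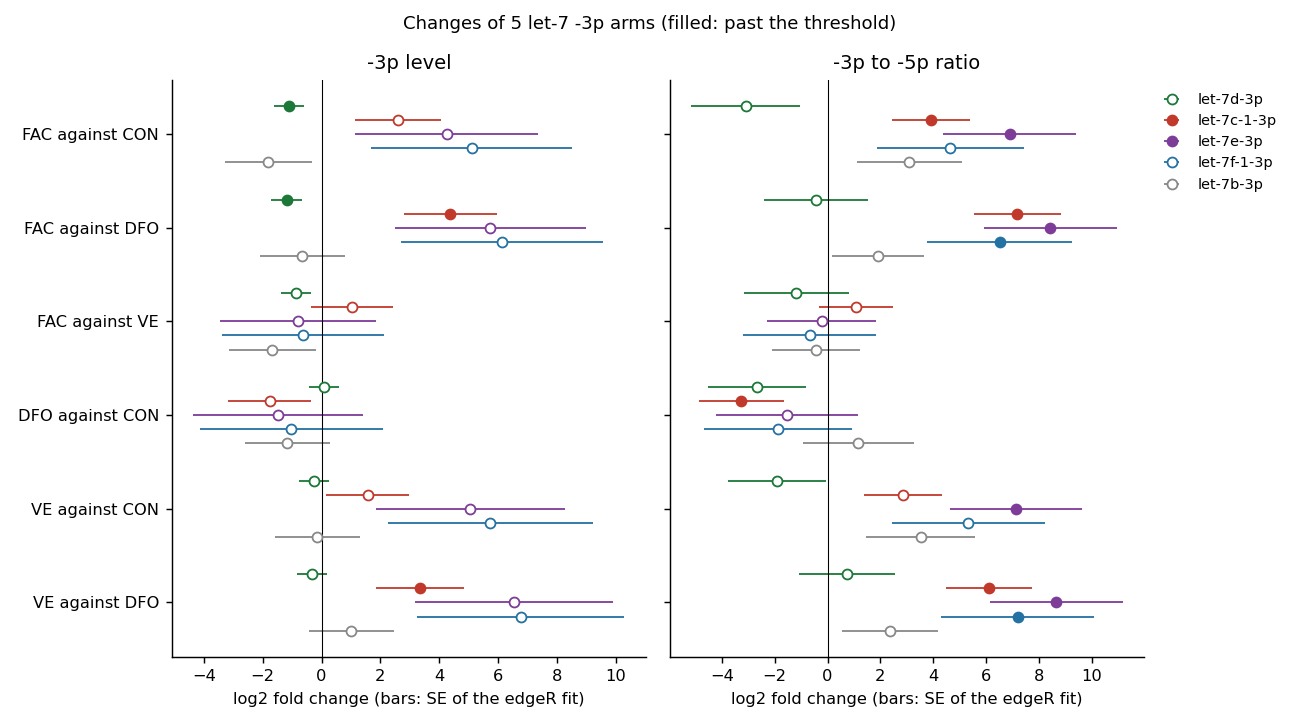
Log2 fold changes (horizontal axis) of the level (left) and of the -3p to -5p ratio (right) of 5 let-7 -3p arms in the 6 comparisons, with the SE of the edgeR fit as bars and filled points for changes past the threshold. On the CPM scale let-7d-3p lies at -1.11 in FAC against CON, a direction that flips on the RPM scale, while the let-7c-1 ratio lies at 7.18 in FAC against DFO and 6.11 in VE against DFO. Points of let-7e-3p and let-7f-1-3p against CON or DFO depend on the prior count. In other settings the let-7c-1 ratio was as low as 4.75 in FAC against DFO and 3.54 in VE against DFO.

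The let-7c-1 gene neighbours miR-99a in RefSeq and belongs to a cluster with miR-125b-2, and let-7e neighbours miR-125a and belongs to a cluster with miR-99b. Other miRNAs of the let-7 clusters were 11 entries, 10 of them tested for level and 5 -3p arms tested for ratio. Of the 5 ratios, 1 passed in FAC against DFO and in VE against DFO, miR-125b-2-3p to miR-125b-5p, beside 10.2% and 7.81% of the 128 hairpins. In the other 4 comparisons 0 passed. A count of 1 in a list this short is no result about the clusters. The share of miR-125b-2-3p was 0.726%, 0.0337% and 0.0813% in CON, 1.54%, 0.651% and 1.24% in FAC, 0.362%, 0.00352% and 0.0375% in DFO and 0.402%, 1.11% and 1.20% in VE. All FAC and VE libraries were above all DFO libraries, here too without the share of all hairpins that separate so, and CON replicate 1 was inside the range of FAC and VE. Its ratio had a log2 fold change of 4.78 in FAC against DFO (SE 2.08, adjusted p = 0.314 in edgeR) and of 4.38 in VE against DFO (SE 2.09, adjusted p = 0.54 in edgeR). miR-125b-5p is also made by miR-125b-1, and miR-125b-1-3p was lower in FAC than in DFO in level (log2 fold change -2.01, adjusted p = 0.0879 in edgeR).

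In the same cluster miR-99a-5p rose in FAC against DFO, from 52295, 63750 and 63851 CPM to 173153, 161332 and 113504 CPM (log2 fold change 1.32, SE 0.36, adjusted p = 0.0283 in edgeR), the opposite direction to let-7c-5p in CPM. It was higher on the RPM scale too (2.59 in limma on log2(RPM + 1)). miR-99a-3p was counted at most 3 times in a library. In the let-7e cluster miR-125a-5p fell in FAC against DFO, with a log2 fold change of -2.51 (SE 0.54, adjusted p = 0.000724 in edgeR; -1.22 in limma on log2(RPM + 1), not past the threshold). The share of miR-125a-3p was 30.5%, 25.6% and 11.6% in FAC and 3.41%, 3.72% and 12% in DFO, which overlapped (adjusted p of the ratio 0.834 in edgeR).

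**Figure D5:**
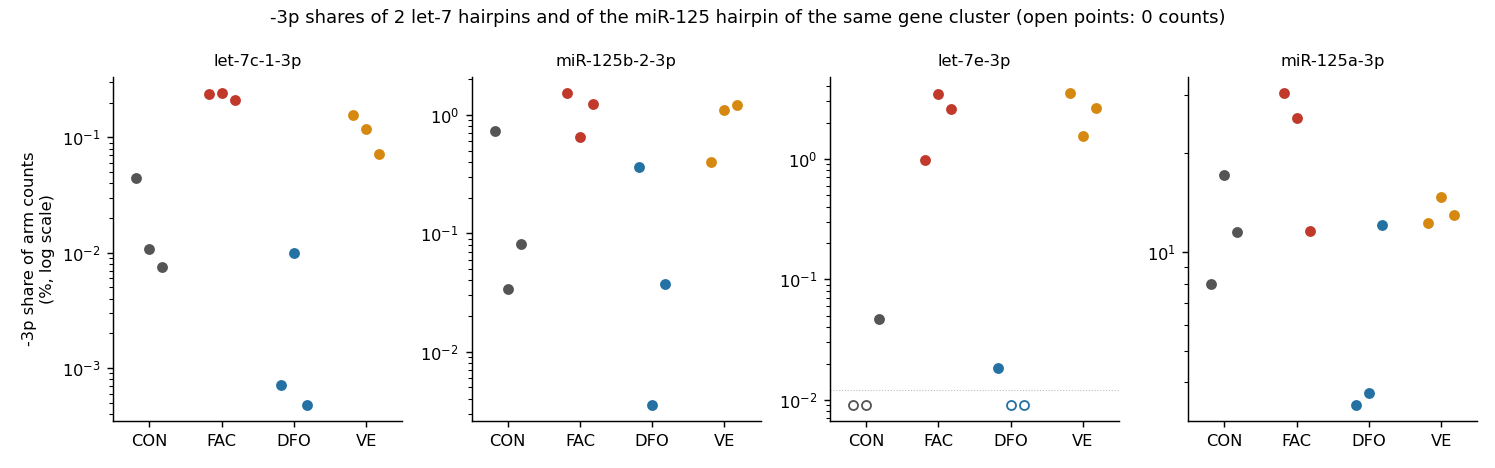
Share of -3p in the counts of both arms (vertical log axis, percent) for let-7c-1 and miR-125b-2 of one gene cluster and for let-7e and miR-125a of another, one point per library. miR-125b-2 is at 0.402% or more in all FAC and VE libraries and at 0.362% or less in all DFO libraries, and miR-125a overlaps between FAC and DFO. The share of all hairpins that separate so is not given.

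Over the 12 libraries the entries whose log2 CPM followed let-7c-1-3p most closely by Spearman's rho were miR-23a-3p (0.902), miR-23b-3p (0.895) and miR-140-5p (0.889), which the study selected on these libraries with let-7c-1-3p. Among the -3p members the closest was let-7e-3p, with a rho of 0.655, and let-7d-3p had -0.678. The entries closest to let-7d-3p were miR-744-5p (0.937), let-7b-5p (0.888) and miR-193b-5p (0.874). These libraries share 4 treatments and differ in depth, so the values describe likeness in these libraries alone.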

How the data were processed

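Per the labels, exosomal miRNA of 12 libraries was sequenced with reads of 15 to 41 bp. The authors deposited raw read counts per miRNA and the same values as RPM, relative to a library total of 22631206 to 24845945 reads. The submitters' processing notes name mm9. The aligner and miRNA database are not given in the sources used here. Counts were tested as deposited with edgeR 4.0.16 (R 4.3.3, quasi-likelihood, TMM, all 4 groups in 1 fit, at least 10 counts in all), for 547 entries and for the arm ratio of 128 hairpins, with library terms. Benjamini-Hochberg adjustment was over all of them. The biological coefficient of variation was 1.57 for levels and 1.21 for ratios. limma 3.58.1 and DESeq2 1.42.0 were alternatives. Scripts were tested on simulated data. No pair of libraries was a repeat, with a chi-square per degree of freedom of at least 155.7 over 66 pairs. Members, their -5p arms, the cluster lists, the markers and the named genes (members, their partners, list entries with an adjusted p under 0.05 and the 3 entries closest to let-7c-1-3p and let-7d-3p) were chosen with earlier results of these data known, and so were the tests. Other miRNAs named above (miR-125b-1-3p, miR-125b-2-3p, miR-125a-3p, miR-99a-3p) are entries of the cluster list chosen after their values were seen.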

Additional observations from a re-analysis of the deposited data

How the results depend on the processing

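The number of -3p members past the threshold depended on the setting. In limma on log2(RPM + 1), 35.6% of all tested entries rose in FAC against CON and 20.5% in FAC against DFO. For most other settings the share of all entries is not given here, so the counts below are no result about the members. For levels, FAC against CON gave 1, and 4 with library read totals, 3 in DESeq2, 0 with only the 2 compared groups, 4 in limma on log2(RPM + 1), 5 on log2(RPM + 0.1) and 2 with counts in lowest modes. FAC against DFO gave 2, and 4 in DESeq2. FAC against VE gave 0, and 1 in limma on log2(RPM + 1) and in lowest modes. DFO against CON gave 0, and 1 with library totals and in both limma fits. VE against CON gave 0, and 4 with library totals, 1 in DESeq2 and 3 in both limma fits. VE against DFO gave 1, and 2 with library totals, filterByExpr and both limma fits, 3 in DESeq2, and 0 with only the 2 groups and in lowest modes. With 1 library left out these 6 counts ran from 0 to 2, 1 to 3, 0 to 1, 0 to 1, 0 to 1 and 0 to 3. For arm ratios, FAC against VE gave 1, and 0 in both limma fits, with the replicate block, at 1 count per arm and with let-7a-5p alone. DFO against CON gave 1, and 0 in lowest modes and at 1 count per arm. VE against CON gave 1, and 2 in both limma fits and with let-7a-5p alone, and 0 in lowest modes. With 1 library left out the ratio counts ran from 1 to 5 in FAC against CON, 2 to 3 in FAC against DFO, 0 to 1 in FAC against VE, 0 to 1 in DFO against CON, 1 to 3 in VE against CON and 2 to 4 in VE against DFO. The cause was not tested. let-7d-3p in FAC against CON reversed to 2.10 with library totals and 2.07 in both limma fits, and the let-7e ratio in FAC against VE to 0.15 in lowest modes, 0.31 without FAC replicate 1 and 0.05 without VE replicate 1, with -0.62 to 0.31 over the 12 fits without 1 library.

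The let-7c-1 and let-7e ratios in FAC against DFO and in VE against DFO kept direction and unadjusted call in all 18 alternatives each. These refits use the same counts and are not independent evidence. The study selected let-7c-1-3p on these libraries, and let-7e-3p reached the count needed for a test only through FAC and VE. With 1 library left out the let-7c-1 value lay between 6.33 and 8.52 in FAC against DFO and between 5.26 and 7.45 in VE against DFO. In the 6 other settings it lay between 4.75 and 7.18 and between 3.54 and 6.11. The main values of 7.18 and 6.11 thus stood at the top of those ranges. The adjusted p for let-7c-1 rose to 0.0733 (without DFO replicate 3) and 0.167 (lowest modes). For let-7e it rose to 0.198 (without FAC replicate 2) and 0.286 (lowest modes). The let-7c-1 ratio in FAC against CON lost its call without CON replicate 3 (3.38). In level, let-7c-1-3p in VE against DFO lost its call in 3 of 11 settings and 5 of 12 fits with 1 library left out, let-7d-3p in FAC against CON in 3 and 4 beside the reversals, and let-7d-3p in FAC against DFO in 3 and 3. The deviations of same-numbered libraries had a mean r of 0.0042 over 18 pairs, beside -0.002 over 36 others. With a biological coefficient of variation of 1.57 for levels, these values cannot decide whether same-numbered libraries shared an animal or a batch. With the replicate block the let-7c-1 ratio in VE against DFO was 5.95 (adjusted p = 0.0715 in limma), and the let-7f-1 ratio lost its call in FAC against DFO (4.82) and in VE against DFO (5.13).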

Other observations

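2 let-7 entries carry no arm in their name and were left out of the members. let-7j was counted 181, 182 and 289 times in CON, 1170, 417 and 252 times in FAC, 107, 291 and 205 times in DFO and 21, 183 and 231 times in VE. let-7k was counted at most 64 times in a library. miR-98-3p, the -3p arm of a hairpin whose -5p arm has the let-7 seed, was counted 98 times in FAC replicate 1, once in CON replicate 2 and 0 times in the other 10 libraries, and let-7i-3p also had its highest count, 45, in FAC replicate 1. In groups of 3 libraries no outlier test was made.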
